A study of Mus musculus with 2 samples.

Results

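Dense clusters of distal open chromatin of the mouse thymus were described with the peaks, the footprints and the cut-rate track of a DNase-seq experiment on 2 animals. In DNase-seq, nuclei are treated with DNase I and the ends of the cuts are sequenced, so that accessible DNA yields peaks of cuts. Each sample was whole thymus from a B6CASTF1/J female, a hybrid of the C57BL/6J and CAST/EiJ strains, at an age of 14 days. They form 1 group of biological replicates with different animal numbers, and there is no other group to compare them with. The labels give both animals the same donor identifier.

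A distal peak was a replicate 1 peak on chromosomes 1 to 19 that shared at least 1 bp with a replicate 2 peak and whose midpoint lay over 500 bp from the TSS (transcription start site) of every protein-coding gene. Neighbouring distal peaks with a gap of at most 12500 bp were joined into regions, and regions of 10 or more peaks were kept as dense clusters. This gave 421 clusters among 24701 regions, and they held 5651 of the 55585 shared distal peaks of replicate 1 (10.2%). The clusters were selected on peak positions in both replicates and ranked by summed peak strength, so their numbers, densities and strengths below are descriptions. The animals form no groups to compare, and most measures are given in both. For a difference taken within each animal, an exact sign-flip permutation test over 2 animals cannot give a two-sided p below 0.5.

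Closely spaced open elements are a known feature of genes that define a cell type, where groups of enhancers act on a shared promoter; such groups are known as locus control regions or super-enhancers. Most cells of the young thymus are thymocytes, which rearrange their T cell receptor genes, acquire the CD4 and CD8 coreceptors and are held in the T lineage by factors such as TCF-1, GATA3 and BCL11B. Within an open element, a footprint is a short stretch protected from DNase I, as a bound protein would leave. Neither histone marks nor RNA were measured here, so the clusters are not called enhancers. The tissue label was checked on promoters: those of the T cell genes Cd3e, Cd3d, Cd3g, Cd4, Cd8a, Cd8b1, Rag1, Rag2, Ptcra and Lck held a peak in both replicates, of strength 3.33 to 18.5 in replicate 1 and 1.63 to 5.06 in replicate 2. Strength is the signal value that the authors give each peak.

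The strongest replicate 1 peaks of at most 300 bp in the 5 first clusters by mean rank are printed because each is the single strongest element of that length in its cluster in that replicate. In replicate 2 another peak was the strongest in the Cd8b1, Ptma, Ccnd3 and Arl5c clusters. Each is the plus strand of mm10, 5′ to 3′, read from the RefSeq copy of the GRCm38.p6 assembly, and capitals mark bases inside footprints of both replicates. Clusters are named by the protein-coding gene with the nearest TSS, which need not be the gene they act on.
Cd8b1 cluster, chr6:71369461-71369740: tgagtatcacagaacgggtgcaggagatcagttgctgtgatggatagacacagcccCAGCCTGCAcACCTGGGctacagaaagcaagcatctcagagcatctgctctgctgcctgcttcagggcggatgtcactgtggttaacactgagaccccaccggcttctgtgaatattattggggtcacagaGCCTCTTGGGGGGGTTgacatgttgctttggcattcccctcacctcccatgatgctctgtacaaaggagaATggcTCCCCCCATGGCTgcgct
Ptma cluster, chr1:86525281-86525480: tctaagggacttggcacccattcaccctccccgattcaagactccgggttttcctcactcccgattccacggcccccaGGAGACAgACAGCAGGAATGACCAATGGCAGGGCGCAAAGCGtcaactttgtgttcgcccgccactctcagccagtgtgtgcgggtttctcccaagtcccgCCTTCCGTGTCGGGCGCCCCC
Tspoap1 cluster, chr11:87755421-87755600: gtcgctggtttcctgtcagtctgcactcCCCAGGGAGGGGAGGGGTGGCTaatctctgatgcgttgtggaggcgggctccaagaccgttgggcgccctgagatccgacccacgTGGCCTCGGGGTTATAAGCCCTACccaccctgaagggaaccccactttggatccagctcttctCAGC
Ccnd3 cluster, chr17:47542141-47542380: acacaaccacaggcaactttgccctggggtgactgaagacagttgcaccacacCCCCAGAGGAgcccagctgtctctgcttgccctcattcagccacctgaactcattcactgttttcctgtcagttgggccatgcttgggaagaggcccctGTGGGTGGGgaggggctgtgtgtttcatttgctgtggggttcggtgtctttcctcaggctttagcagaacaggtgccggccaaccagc
Arl5c cluster, chr11:98000481-98000700: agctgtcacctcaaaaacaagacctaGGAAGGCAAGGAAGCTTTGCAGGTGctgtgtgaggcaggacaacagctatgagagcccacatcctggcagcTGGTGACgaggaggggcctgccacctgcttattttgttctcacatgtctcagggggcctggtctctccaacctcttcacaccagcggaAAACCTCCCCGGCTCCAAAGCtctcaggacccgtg

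The Cd8b1 peak lay 3826 bp from the nearest TSS, that of Cd8a, in an intron of the noncoding gene Gm44174. Replicate 1 gave it a strength of 21.9 and replicate 2 one of 4.44, and 47 of its 280 bases lay in footprints of both. Its capitals from base 66 to 71 cover 83.3% of an E-box, a site of basic helix-loop-helix factors, on the minus strand (CAGGTG); the RUNX word TGTGGT at bases 134 to 139 lay outside footprints of both. The Ptma peak lay between genes, 1345 bp from the Ptma TSS. The Tspoap1 peak lay 66 bp from the start of Mir142hg, the host gene of a microRNA of blood cells, and overlapped an exon of it, so it is distal only with respect to protein-coding genes. The Ccnd3 peak lay in an intron of Ccnd3, 37111 bp from its TSS, and only 19 of its 240 bases were in footprints of both replicates. The Arl5c peak lay between genes and held ETS words (AGGAAG, both strands searched) at bases 26 to 31 and 35 to 40, 83.3% and 100% inside shared footprints.

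**Figure D1:**
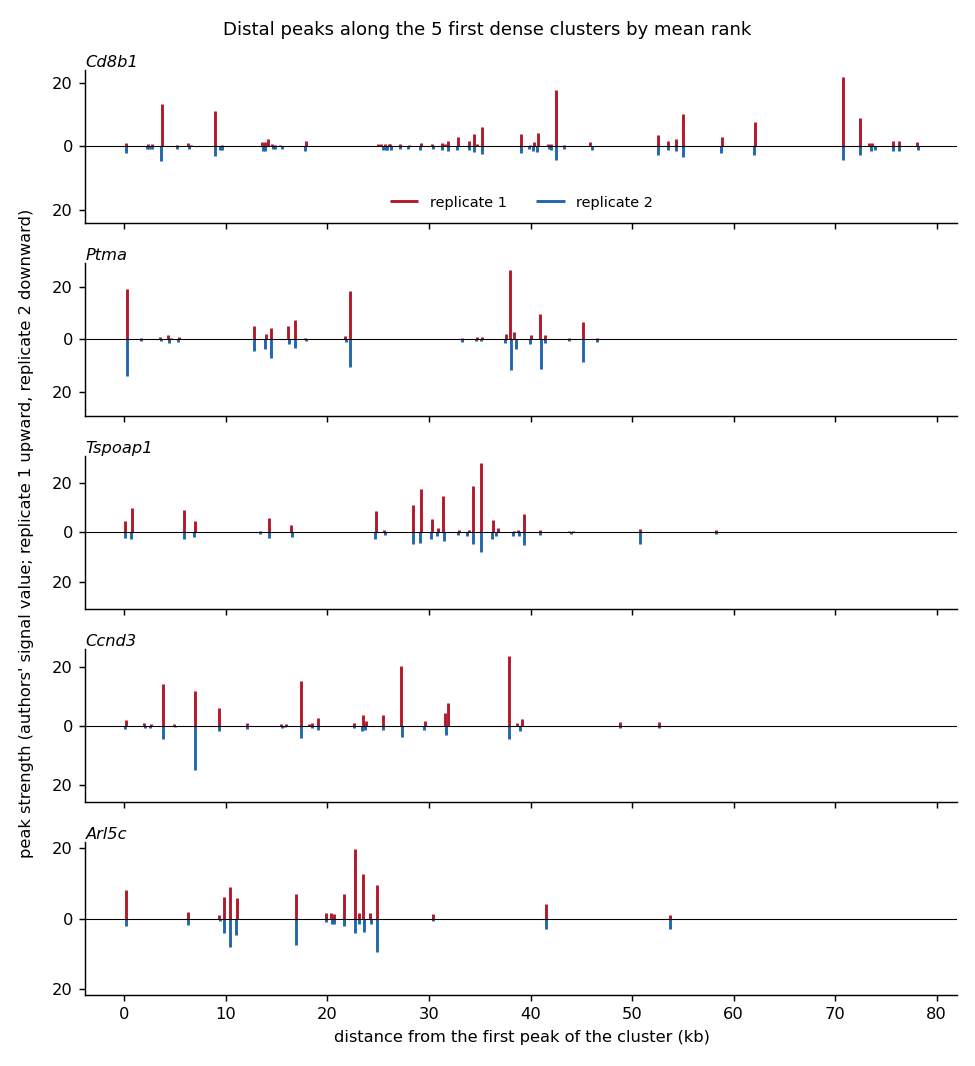
Strength of every shared distal peak of the 5 first clusters against its distance in kb from the cluster's first peak. Replicate 1 bars point up and replicate 2 bars point down, in the authors' signal values, which are scaled separately in each replicate. The strongest of the 55 peaks of the Cd8b1 cluster has 13.6% of its sum in replicate 1, whereas 1 peak near the start of the Ccnd3 cluster stands out in replicate 2.

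A cluster held a median of 12 peaks (10 to 55) over a median of 34900 bp (5500 to 117015 bp). Its summed strength had a median of 31.6 in replicate 1 (3.81 to 167) and of 20.6 in replicate 2 (2.45 to 94.3). These sums are in the authors' signal values, whose scale differs between replicates. Only 35 clusters had 20 or more peaks, 76 were over 50 kb wide, and 13090 regions consisted of a single peak. Together the clusters covered 15263782 bp, or 0.637% of the sequenced bases of these chromosomes. They held 16.9% of the strength of all shared distal peaks in replicate 1 and 13.2% in replicate 2. A median of 26.1% of a cluster's sum came from its strongest peak in replicate 1, and 21.2% in replicate 2. Inside the clusters 16.7% of bases in replicate 1 and 21.7% in replicate 2 had a false discovery rate under 0.05, against 1.31% and 1.76% of the sequenced bases of chromosomes 1 to 19. A higher share follows from the choice of clusters by their peaks. After the bases of each shared distal peak were subtracted, the share of cluster bases was 9.56% and 11.9%, which includes promoter peaks and peaks of 1 replicate. These 2 shares are approximate. Bases of overlapping peaks were subtracted more than once, and some replicate 2 peaks reach past the end of a cluster.

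At the threshold, 105 clusters had exactly 10 peaks, with median sums of 22.9 in replicate 1 and 15.01 in replicate 2. The 159 regions of 9 peaks had medians of 18.4 and 12.1. The first clusters of 10 peaks by mean rank lay 9640 bp from the TSS of Vdac1, which encodes a channel of the outer mitochondrial membrane (sums 50.8 and 30.6), and at Def6, which encodes an exchange factor of T cell signalling (55.9 and 26.8). The first regions of 9 peaks were nearest to Rbx1, a ubiquitin ligase subunit gene (42.7 and 23.5), and Socs1, an inhibitor of cytokine signalling (36.4 and 21.9). Sums of the strongest regions of 9 peaks thus lay above the median of the clusters.

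Clusters at genes of the T cell receptor and its coreceptors included the first by mean rank. The cluster at Cd8b1 and Cd8a, which encode the CD8 coreceptor chains, was that cluster. It spanned chr6:71298841-71376991 with 55 peaks and sums of 161 in replicate 1 and 81.3 in replicate 2, rank 2 in each. It also held the TSS of Smyd1, a muscle methyltransferase gene. The cluster whose nearest protein-coding TSS was that of Prss2, a trypsinogen gene 11134 bp away, lay in the T cell receptor beta locus at chr6:41532921-41563503. It held the starts of Trbc1, Trbc2, Trbd1, Trbd2 and of J segments, and packed 34 peaks at 11.1 per 10 kb, with sums of 77.1 and 46.4. A cluster of 13 peaks at chr14:54224741-54239300, named for Dad1 and 4220 bp from the alpha constant gene Trac, had sums of 76.0 and 36.3. It was picked out after its values were seen. The Lag3 cluster, which holds the TSS of the coreceptor gene Cd4, had 17 peaks with sums of 80.8 in replicate 1 and 39.5 in replicate 2. One cluster of 19 peaks held the starts of Cd3d, Cd3e and Cd3g, the CD3 chains that signal for the receptor, with sums of 52.4 and 34.1.

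Further clusters of that group lay at Cd27, a costimulatory receptor gene (sums 71.7 and 37.8), at the adhesion receptor gene Cd2 (54.2 and 39.6) and at Thy1, a surface glycoprotein gene of thymocytes (58.6 and 22.9). The cluster at Lck, which encodes the kinase that starts receptor signalling, was nearest to Fam167b and had 11 peaks and sums of 37.2 and 22.9. Those at Cd247, the gene of the zeta chain, and at Fyn, a signalling kinase gene, had sums of 35.3 and 18.8 in replicate 1 and of 21.99 and 11.6 in replicate 2. Ranks of these clusters ran over most of the list, down to 353 in replicate 1 and 378 in replicate 2 for Fyn.

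Among genes of T lineage factors, the cluster at Tcf7, which encodes TCF-1, came first by mean rank. It spanned chr11:52254101-52321860, a stretch of 67760 bp with 33 peaks, and its sums were 96.7 in replicate 1 and 51.2 in replicate 2 (ranks 10 and 12). The E2f2 cluster overlapped the gene body of Id3, an inhibitor of E proteins, and its 25 peaks had sums of 87.2 and 53.9. Bcl11b, a factor that fixes T lineage commitment, had a cluster of 10 peaks at the gene with sums of 33.4 and 22.4. A cluster of 33 peaks, the widest of the 421 at 117015 bp, lay 674927 bp from Bcl11b on the same chromosome, and the nearest protein-coding TSS (3110018I06Rik) was 253157 bp away. Its sums were 101 and 43.2, ranks 8 and 24. Clusters at Nfatc3 (43.5 and 24.8) and at Fli1 (40.5 and 21.1) ranked between 126 and 197 in each replicate. Ikzf1, which encodes Ikaros, had 2 clusters, with sums of 30.2 and 19.2 (ranks 221 and 231) and of 20.9 and 14.4 (ranks 328 and 330). Those at Gata3 (nearest TSS that of 4930412O13Rik), Bach2, Elf1 and Ets1 (nearest TSS that of Fli1) had between 10 and 11 peaks and sums of 13.9 to 24.0 in replicate 1 and 11.7 to 18.9 in replicate 2. Ets1 was also the nearest gene of a remote cluster, 214377 bp from its TSS, with 13 peaks and sums of 50.9 and 24.3, which was picked out after its values were seen.

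Of genes for recombination, homing and survival, Dntt, which encodes the polymerase that adds bases at receptor junctions, had a cluster of 12 peaks with sums of 47.7 in replicate 1 and 23.4 in replicate 2. Ccr9, a chemokine receptor gene of thymocytes, had 10 peaks and sums of 46.1 and 19.1. Socs3, an inhibitor of cytokine signalling, had 15 peaks and sums of 49.4 and 35.5. Bcl2l1, the gene of the survival factor BCL-xL, ranked 102 in replicate 1 and 288 in replicate 2 with sums of 48.2 and 16.2. Cxcr4 and Cd69, genes of a chemokine receptor and of an activation marker, had 14 and 15 peaks.

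Counted over lists of genes chosen with earlier results of these data known, 30 of 90 T cell genes had a dense cluster within 25 kb of the gene body (33.3%), against 1026 of 20753 protein-coding genes (4.94%). They were 13 of 30 genes of the receptor complex, coreceptors and signalling, 11 of 30 transcription and chromatin factors, and 6 of 30 genes of recombination, homing and cytokine or Notch receptors. These 30 genes lay at 28 of the 421 clusters, since Cd8a and Cd8b1, and the 3 CD3 genes, each share one cluster and Ikzf1 has 2 within reach. T cell genes were the nearest gene of a cluster in 25 of 90 cases (27.8%), against 1.96% of all protein-coding genes. The 60 T cell genes without a cluster in reach included Rag1, Rag2, Satb1, Runx1, Runx3, Lef1, Notch1, Il7r and Themis. Some of the 60 were still the nearest gene of a cluster farther than 25 kb from the gene body. Lef1, partner of TCF-1, was the nearest gene of a cluster 159651 bp away. Satb1, Rasgrp1 and Ptprc were the nearest genes of clusters of 16, 21 and 10 peaks. Among markers of other cells that a thymus holds, a cluster lay at 2 of 15 B cell genes (Blnk and Cd72), 1 of 18 myeloid and dendritic genes (Mpo), 3 of 19 thymic epithelial genes (Cldn3, Cldn4 and Prss16), 2 of 15 endothelial and mesenchymal genes (Col1a1 and Egfl7) and 0 of 10 erythroid genes. Of these, Mpo lies next to the Tspoap1 cluster. None of the 16 hepatocyte, 13 striated muscle and 11 neuron genes had one. The lists also differ in promoters. A promoter peak in both replicates was found for 88 of 90 T cell genes (97.8%), against 58.7% of all protein-coding genes. In the other lists the share ran from 0 of 16 hepatocyte genes to 6 of 11 neuron genes. The part of open promoters in the counts of clusters was not tested. What different cell types contribute to a cluster cannot be told apart in whole tissue.

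**Figure D2:**
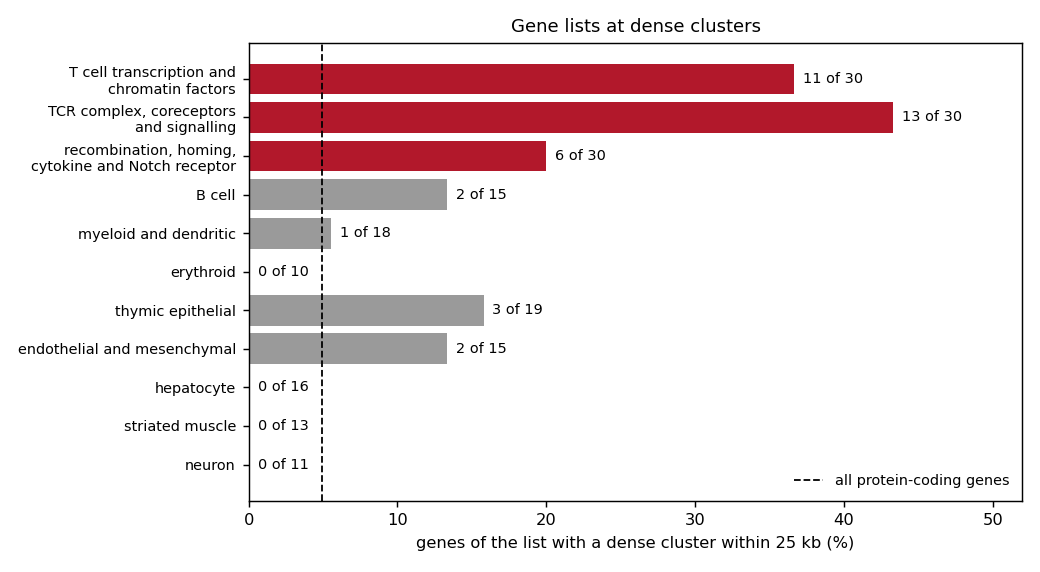
Percent of the genes of each list with a dense cluster within 25 kb of the gene body; labels give the number of genes, and the dashed line marks the 4.94% of all protein-coding genes. The 3 T cell lists (red) reach up to 43.3% and the other lists up to 15.8%.

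Many of the strongest clusters were not at genes of those lists. The Ptma cluster, at the gene of prothymosin alpha, an acidic nuclear protein of dividing cells, had 26 peaks at chr1:86487361-86533962. Its sums were 124 in replicate 1 and 94.3 in replicate 2, ranks 4 and 1. The Tspoap1 cluster at chr11:87720421-87778760 held the starts of Supt4a, a transcription elongation factor gene, and Mir142hg; its 28 peaks summed to 167 and 68.7, ranks 1 and 4. The Ccnd3 cluster, at the cyclin D3 gene, which drives proliferation of early thymocytes, had 27 peaks and sums of 129 and 55.5. In replicate 2 a peak at chr17:47511221-47511440 held 27.1% of its sum with a strength of 15.1, whereas the strongest peak of replicate 1 was the one whose sequence is printed.

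Other clusters among the first 20 by mean rank were, in order, those at Arl5c, Clec16a, Trim80, Btg2, Srebf1, Fam78a, Cirbp, Sema7a, Chrna9, Igf2bp3 and Trp53i11. Btg2 encodes an inhibitor of proliferation, Srebf1 a regulator of lipid synthesis and Cirbp an RNA-binding protein induced by cold. Sums of these 11 clusters ran from 63.95 to 105 in replicate 1 and from 41.0 to 62.5 in replicate 2. The Igf2bp3 cluster had only 11 peaks, and the same 2 elements led in both animals but in opposite order. A peak at chr6:49236421-49236620 had a strength of 38.6 and 61.8% of the sum in replicate 2 and the peak of replicate 1 that overlaps it had 12.9. The peak at chr6:49217981-49218200 was the strongest of replicate 1 with 28.1, and its strength in replicate 2 was 7.503.

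With respect to genes, 162 of 421 clusters contained no protein-coding TSS, 165 contained that of 1 gene and 94 those of 2 or more. Of the 162, 80 lay within 25 kb of a TSS and 23 over 100 kb away, with a median distance of 25526 bp. A protein-coding gene body overlapped 366 clusters, a promoter peak shared by both replicates lay inside 239, and the TSS of a noncoding gene or pseudogene inside 247. The nearest gene was the same when it was taken from the strongest peak in 339 of 421. Clusters had 406 different nearest genes, and 15 of these, among them Ikzf1, Fli1, Foxp1, Zfp36l2 and Dad1, were nearest to 2 clusters. A promoter peak in both replicates was found for 340 of the 406 nearest genes (83.7%), for 490 of 655 other genes within 25 kb of a cluster (74.8%) and for 57.7% of the remaining protein-coding genes; over all genes it was 58.7%. The median promoter strength of open nearest genes was 6.73 in replicate 1 and 3.96 in replicate 2, against 6.10 and 4.07 for the remaining genes, so the replicates differ in direction. Chromosome 11 was the densest in clusters, with 53 clusters, or 4.46 per 10 Mb, and 16.7% of its shared distal peaks inside them. Chromosome 18 had 4 clusters and 3.69% of its distal peaks.

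**Figure D3:**
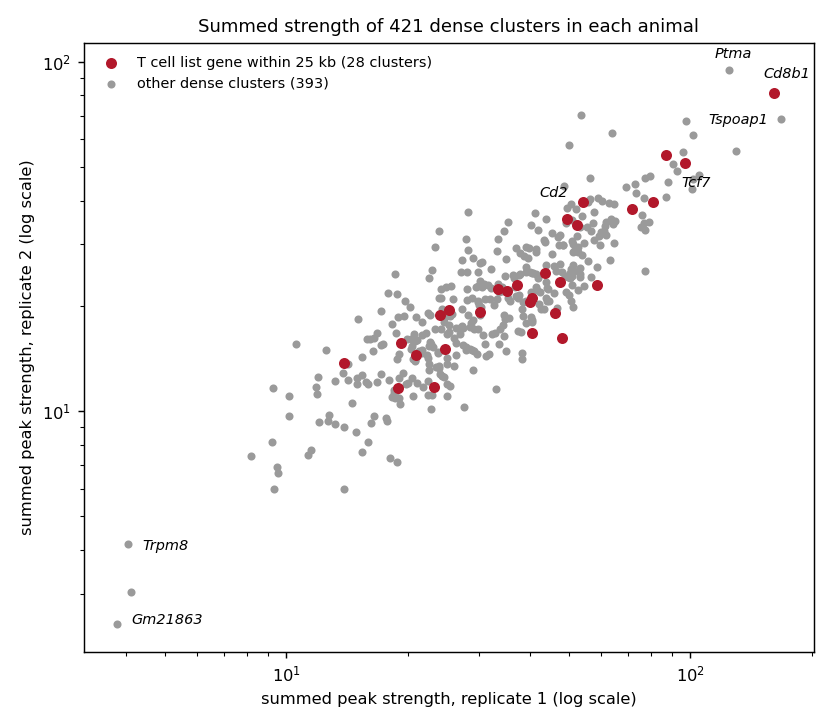
Summed peak strength of each of the 421 clusters in replicate 1 (horizontal) and replicate 2 (vertical), both on log scales. The 28 clusters with a T cell list gene within 25 kb (red) spread over most of the range, from the Cd8b1 cluster near the top down to a lowest sum of 13.9 in replicate 1 and of 11.6 in replicate 2.

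Ranks of summed strength were similar in the 2 animals. Spearman's rho between replicates was 0.851 across the 421 clusters, which share libraries and peak positions. Of the first 20 clusters in each replicate 15 were the same, and of the first 100, 75. Ranks differed by a median of 37 places and by at most 231. Strength followed the strongest peak (rho with the sum 0.836 in replicate 1 and 0.744 in replicate 2) more closely than the number of peaks (0.631 and 0.633). The log2 ratio of the sums, replicate 1 over replicate 2, had a median of 0.68. The part of the different scales of both lists in this ratio was not tested. Other shared distal peaks had a median strength of 0.857 in replicate 1 and 0.852 in replicate 2.

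The largest rank differences were at 9130213A22Rik (296 in replicate 1 and 65 in replicate 2), Elf2 (359 and 137), Tmem107 (300 and 91), Hfe2 (246 and 40) and Bcl2l1 (102 and 288). The first 4 of these held 7, 2, 4 and 5 transfer RNA (tRNA) genes of the RefSeq annotation, which RNA polymerase III transcribes, and Bcl2l1 held none. This was looked at over all clusters after those ranks were seen. Of 421 clusters 15 held a tRNA gene, and 9 held 4 or more. All 9 ranked higher in replicate 2 than in replicate 1, as did 195 of all 421 clusters, and 7 of them had the larger sum in replicate 2, as did 22 of 421. Their median log2 ratio was -0.20, with a range of -0.46 to 0.37, against 0.68 in the 406 clusters with no tRNA gene. The 9 include those at 9130213A22Rik, Tmem107 and Hfe2, whose ranks prompted the count. The 6 clusters with 1 to 3 tRNA genes showed no such shift in their median, but they include the Elf2 cluster with its large rank difference. Their median was 0.72, with a range of -0.41 to 1.15. Of the 6, 3 ranked higher in replicate 2 and 1 had the larger sum there. The Abt1 cluster with 19 tRNA genes ranked 65 in replicate 1 and 3 in replicate 2, and the Hist1h4h cluster with 12 ranked 92 and 8. In these 9 clusters 7.48% to 28.2% of the 32-base words of the peaks stood at more than 1 place of the genome, against a median of 0.495% over all clusters. The part of repeated sequence in this difference was not tested. Without the 15 clusters rho was 0.867.

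Peaks inside clusters were stronger than other shared distal peaks. Their median strength was 1.53 in replicate 1 and 1.20 in replicate 2, against 0.857 and 0.852 for the other shared distal peaks, a log2 ratio of 0.66 ± 0.24 (SD, n = 2 animals). Strength went with crowding below the threshold as well. The median was 0.618 in replicate 1 for regions of 1 peak, 0.857 for 2 to 4, 1.19 for 5 to 9, 1.48 for 10 to 14 and 1.61 for 15 or more. In replicate 2 the same classes had 0.697, 0.846, 1.01, 1.16 and 1.28. Peaks over 400 bp wide made up 4.28% of cluster peaks against 2.05% of the others in replicate 1, and 22.3% against 11.9% in replicate 2. Inside clusters the median gap between peaks was 1122.5 bp, against 2080 bp in other regions of several peaks, and 10.3% of gaps against 8.79% were under 150 bp. Some calls within a replicate overlap one another, and each was counted as a peak, also in sums, densities and footprint counts. Merging peaks under 150 bp apart left 332 clusters. GC content averaged 54.4% against 53.0% in replicate 1 and 53.4% against 52.1% in replicate 2, and repeat-masked bases 12.1% against 12.1% and 12.2% against 12.6%.

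Cluster peaks also carried more footprints each. They had 2.80 footprints per peak in replicate 1 and 3.28 in replicate 2, against 2.44 and 2.79 in other shared distal peaks, a difference of 0.43 ± 0.095 (SD, n = 2 animals). It was positive in 2 of 2 animals, with a two-sided exact sign-flip permutation p of 0.5, the smallest that 2 animals allow. Per kb of peak the replicates went opposite ways, with 12.9 against 12.46 in replicate 1 and 10.5 against 11.0 in replicate 2. Strength and width move with the count. When peaks of each replicate were split into 5 equal classes of strength, cluster peaks had fewer footprints per kb than other peaks in all 10 comparisons, such as 9.49 against 11.3 in the middle class of replicate 1 and 7.61 against 9.65 in that of replicate 2. The mean difference in footprints per peak over the classes was -0.127 ± 0.067 (SD, n = 2 animals). Cluster peaks had the higher number per peak in the strongest class of replicate 1 and in the 2 strongest classes of replicate 2, and the lower number in the other classes. Footprints present in both replicates made up 49.2% of those in cluster peaks against 52.7% in other peaks in replicate 1, and 48.4% against 49.1% in replicate 2.

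**Figure D4:**
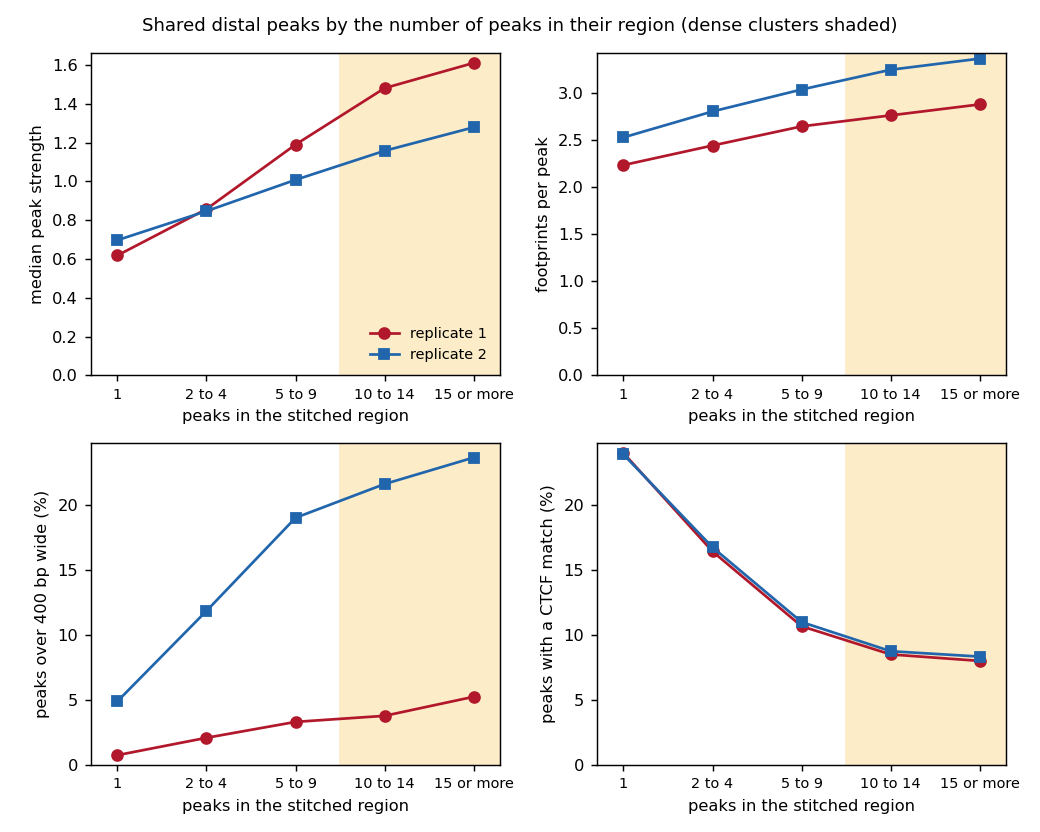
Median strength, footprints per peak, percent of peaks over 400 bp wide and percent of peaks with a CTCF match, by the number of peaks in the stitched region, in each replicate; dense clusters are shaded. The first 3 measures climb with the number of peaks in both replicates, and CTCF matches decline to 7.98% in replicate 1 and 8.31% in replicate 2 in regions of 15 or more peaks.

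Matches to 12 short consensus motifs were counted on both strands in windows of 200 bp around peak midpoints. The clearest difference was in CTCF, the factor that anchors chromatin loops and marks boundaries between domains. A CTCF match stood in 8.30% of cluster peaks against 16.8% of other shared distal peaks in replicate 1, and in 8.58% against 17.1% in replicate 2. Among footprints in peaks, 2.83% against 5.95% held a match in replicate 1 and 2.495% against 5.80% in replicate 2. The share fell with the number of peaks in a region, with 24.0% of lone peaks, 16.4% in regions of 2 to 4, 10.6% in regions of 5 to 9 and 8.48% in regions of 10 to 14 in replicate 1, and near values in replicate 2. It was lower in cluster peaks in all 10 strength classes, 5 per replicate. In the strongest class it was 9.41% against 12.6% in replicate 1 and 20.2% against 35.3% in replicate 2. Within the clusters, the first and last replicate 1 peaks held a match in 13.8% of cases and the replicate 1 peaks between them in 7.34%. At least 1 match was present in the replicate 1 peaks of 258 of 421 clusters. This count depends on the number of peaks in each cluster and is not set beside one for other regions. Among the first 20 clusters the 3110018I06Rik cluster with its 33 peaks and the Cirbp and Igf2bp3 clusters had none.

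Motifs of T cell factors differed less. The E-box CAGCTG, a site of E proteins, stood in 23.3% of cluster peaks against 20.4% of the others in replicate 1 and in 21.3% against 18.8% in replicate 2, and it was higher in clusters in 5 of 10 strength classes. The E-box CAGGTG stood in 30.1% against 28.01% and 26.96% against 26.04%. The SP/KLF word GGGCGG, common at promoters (58.2% of shared promoter peaks), stood in 14.0% against 12.3% and in 13.1% against 11.8%, also higher in 5 of 10 strength classes. The ETS word AGGAAG stood in 36.7% against 35.5% and 34.8% against 34.0%, and the RUNX word TGTGGT in 20.9% against 21.7% and 19.9% against 20.9%. The TCF/LEF word ATCAAAG was rarer, with 3.19% of cluster peaks against 3.72% of the others in replicate 1 and 3.29% against 3.55% in replicate 2. The NFAT word GGAAAA stood in 10.9% against 12.1% and in 11.9% against 12.7%, and was lower in clusters in 9 of 10 strength classes. For GATA factors the word AGATAA stood in 6.62% against 7.26% and in 6.63% against 7.42%. Shares of the Ikaros word TGGGAA were 15.6% against 15.7% and 16.7% against 16.2%, so the replicates differ in direction. The word of ROR factors, AGGTCA, stood in 10.2% against 10.7% and in 10.6% against 10.6%. The AP-1 word TGANTCA stood in 6.53% against 6.52% in replicate 1 and in 7.26% against 6.36% in replicate 2. Every cluster had a replicate 1 peak with the ETS word, 395 had the RUNX word and 147 the TCF/LEF word. With 10 or more peaks in each cluster, such counts depend on the share per peak and the number of peaks. They are not set beside counts for other regions. In the Cd8b1 cluster the ETS word stood in 13 of 55 peaks, RUNX in 10, CAGGTG in 18 and CAGCTG in 15. The shares for ETS and RUNX lie below the replicate 1 shares of all cluster peaks, and those for both E-boxes above. A match is a description of letters and not evidence of binding.

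**Figure D5:**
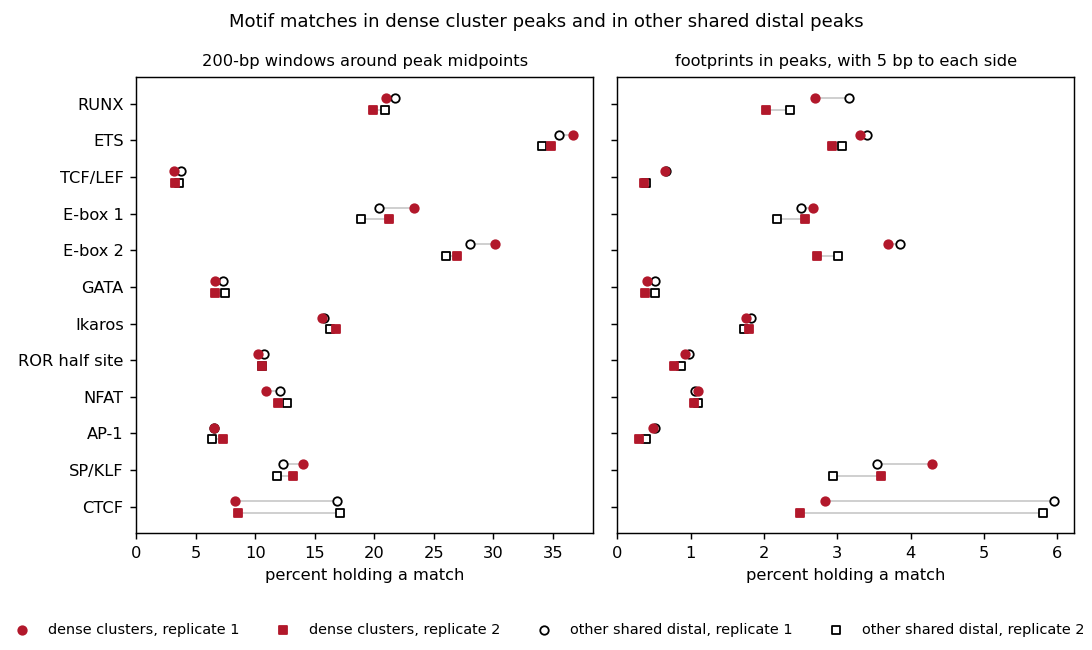
Percent of peaks (left, windows of 200 bp) and of footprints (right, with 5 bp added to each side) with a match to each motif, for dense cluster peaks (red) and other shared distal peaks (white) in each replicate; E-box 1 is CAGCTG and E-box 2 is CAGGTG. CTCF shows the widest gap, with 8.30% against 16.8% of peaks in replicate 1.

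The densest clusters were mostly weak. Density is the number of peaks over the width, so at like numbers of peaks the densest clusters are also the shortest. The densest, of 11 peaks in 5500 bp, lay 157486 bp from the TSS of Cd24a, a surface antigen gene of immature thymocytes, at chr10:43737421-43742920, with sums of 17.6 in replicate 1 and 9.52 in replicate 2. The Lcp1 cluster, in the gene of an actin-bundling protein of leukocytes, had 16.1 peaks per 10 kb and sums of 17.8 and 9.35. The cluster near Yy1 (15.2 per 10 kb, sums 42.0 and 24.0) and that at Zfp36l1, an RNA decay factor gene (14.6 per 10 kb, 20.7 and 16.6), were stronger. The Gm21863 cluster at chr12:20227061-20234020 had 17.2 peaks per 10 kb but the lowest rank in both replicates, with sums of 3.81 and 2.45. There, 24.2% of 32-base words stood at more than 1 place, and footprints numbered 9.33 per kb in replicate 1 and 2.28 in replicate 2. After Cd8b1, the most peaks lay in the Prss2, Tcf7, 3110018I06Rik and Sfi1 clusters; the last, in a mitotic spindle gene, had 33 peaks, sums of 56.3 and 40.5, and 20.98% of repeated words. Over all clusters, 16 had over 10% of repeated words and 1 over 50%, and the share was 1.96% of words in cluster peaks against 2.25% in other shared distal peaks.

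Footprints per kb of peak ranged from 5.94 to 20.5 in replicate 1 and from 2.28 to 17.8 in replicate 2, with medians of 13.2 and 10.6. The order was less alike between animals than that of strength (rho 0.417). The highest means were at the cluster named for Cdca7, a MYC target gene, 60499 bp from its TSS (20.5 in replicate 1 and 13.5 in replicate 2), at Junb, an AP-1 subunit gene (17.7 and 16.2), and at 1700001O22Rik (18.3 and 15.2). The lowest were at Gm21863, at the cluster named for Ptgis, which lies in B4galt5 (5.94 and 5.77), and at Trpm8 (6.27 and 6.80). The Ptgis cluster had 20 peaks but sums of 11.9 and 11.2.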

How the data were processed

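DNase-seq of the thymus of 2 animals of 1 group was used. The authors made peaks, footprints and a cut-rate track for each sample from its alignments to mm10 without pooling replicates, per the deposited file listings. Not given in the sources used here are the aligner, the callers and their settings, the treatment of CAST alleles in mapping, and the depth. The strength of a peak is the deposited signal value, whose scale differs between samples by a rule that is not stated; it was summed and ranked within a replicate only. In the deposited track, the authors' q-value (a p-value column adjusted to a false discovery rate) is listed only for runs of bases under 0.05; the constant p-value of the footprint files was not used.

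The longer peak list of each replicate was stitched as described, with TSSs from GENCODE M21 basic (mm10). The replicate 2 values of a cluster come from replicate 2 peaks that met its replicate 1 peaks (5479 peaks). A footprint belonged to the peak holding its midpoint. Genes had unique symbols (27 duplicated symbols left out), and X-linked list genes were not counted. Repeated sequence is the percent of 32-base words of replicate 1 peaks that stand more than once on chromosomes 1 to 19, X and Y of GRCm38.p6. tRNA genes are those of RefSeq. CTCF was searched with a degenerate consensus, the other motifs by their letters. The difference in footprints per peak within each animal was tested with a two-sided exact sign-flip permutation test. Stitching, overlap and word counting were tested on simulated data. Python 3.11.15 with numpy 2.4.6, pandas 2.3.3, scipy 1.17.1 and pysam 0.24.0 was used.

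The members, gene lists and motifs were chosen with earlier results of these data known. Named clusters are the 20 first by mean rank, the 5 with most peaks, the 5 densest, the 5 with the largest rank difference, the 3 with most and the 3 with fewest footprints per kb, the 2 first of exactly 10 and of 9 peaks, and up to 15 with a T cell list gene; others named were picked after their values were seen. Some clusters that this rule names are not reported here, though the counts include them. The alternatives changed the gap, the least number of peaks, the list, the definition of distal and shared, the replicate stitched, and the treatment of close calls, tRNA genes and repeated sequence.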

Additional observations from a re-analysis of the deposited data

How the results depend on the processing

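The number of clusters depended strongly on the rule. It was 140 with a gap of 5 kb, 813 with 20 kb, 823 with 8 or more peaks, 105 with 15 or more, 120 from the stricter lists, 270 with distal peaks over 2000 bp from a TSS and 125 with 50% reciprocal overlap. From 1 replicate without the other it was 1017 to 1064. The percent of distal peaks in clusters was 3.15 at 5 kb, 21.7 at 20 kb, 16.2 with 8 peaks, 3.65 with 15, 4.12 from the stricter lists, 3.59 with reciprocal overlap and 18.4 to 20.1 without a replicate. T cell genes at a cluster numbered 12 of 90 at 5 kb (1.32% of all genes), 51 at 20 kb (11.7%), 12 with 15 peaks (1.46%), 14 from the stricter lists (1.40%), 13 with reciprocal overlap (1.82%) and 49 to 51 without a replicate (11.2% and 11.3%); within 100 kb 38 were (10.3%). Between replicates, Spearman's rho was 0.797 from the stricter lists and 0.771 with reciprocal overlap. The difference in footprints per peak was 0.285 to 0.464 without a replicate, and turned to -0.127 as a mean over 5 strength classes; the cause was not tested. With peaks under 150 bp apart merged there were 332 clusters, and 24 of 90 T cell genes were at one (4.17% of all genes). The difference in footprints per peak was then 0.493. Of the first 20 clusters, 12 were met at 5 kb and 17 to 20 under every other setting.

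The alternatives that merged peaks under 150 bp apart together with TSSs of all genes, left out the cluster of mostly repeated sequence, or left out clusters with tRNA genes were chosen after seeing the data and kept 295, 420 and 406 clusters. The replicate numbers pair no samples across groups, since the series has 1 group; cluster and other peaks were compared within each animal. The authors' signal values carry no depth, so counting error is unknown, and 2 animals limit every comparison to its direction in each.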
